A study of Mus musculus with 10 samples.

Results

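The 37 genes described here are genes of T cells and cytotoxic lymphocytes, chosen by name from a fixed list and found once each among the 51826 genes listed in the expression tables of inguinal white adipose tissue (iWAT). They code for the chains of the αβ T cell receptor and its CD3 partners, the coreceptors CD4 and CD8, the kinases and adaptors that act beside the receptor, surface receptors, transcription factors of the T lineage, and products of cytotoxic cells. RNA-seq was performed on iWAT of male C57BL/6 mice, 1 library per mouse, to ask whether a low-protein diet (LPD) given to fathers changed gene expression in the fat of their offspring. The F1 mice were 5 weeks old and comprised 3 offspring of fathers fed a control diet (F1-CD) and 3 offspring of fathers fed the LPD (F1-LPD, the pLPD offspring). The F0 mice were 10 to 12 weeks old and comprised 2 males fed the control diet (F0-CD) and 2 males fed the LPD (F0-LPD). No mouse carried an engineered allele, all mothers and all F1 mice received only the control diet, and the 3 F1 mice of a group came from different mothers.

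A T cell recognises antigen through its receptor, a pair of variable chains that has almost no cytoplasmic part of its own and passes the signal on through the CD3 chains and Cd247. The kinase Lck, carried by CD4 or CD8, phosphorylates these chains, Zap70 binds to them and phosphorylates the adaptor Lat, and Lat gathers the enzymes that carry the signal further. Fat tissue holds resident T cells between the adipocytes, among them CD8 T cells and regulatory T cells, and the inguinal fat pad encloses a lymph node. Whether that node was removed is not given in the sources used here.

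Levels are given in CPM, the exon reads of a gene scaled to the TMM-normalised size of its library, and changes as log2 fold changes with standard errors (SE) from edgeR's quasi-likelihood test, with p-values adjusted over all genes tested. The libraries held 6351075 to 10044546 exon reads, of which 6145 to 10894 per mouse, or 0.0710 to 0.155%, fell on the 37 genes. A count of 3 reads, below which a gene cannot be told from absent by counting error alone, corresponds to 0.300 to 0.468 CPM. Markers of adipocytes summed to 14999 to 22793 CPM in the 10 mice, the highest of the marker lists. The F1-LPD libraries stood apart in depth and in 1 measure of RNA. They held 6351075 to 7087511 exon reads, against 7351881 to 8971136 in F1-CD and 8653850 to 10044546 in F0. Of their reads on nuclear coding genes, 40.7 to 48.4% lay outside exons, against 36.0 to 37.5% in F1-CD and 36.3 to 37.9% in F0. Skeletal muscle markers summed to 1359 and 2078 CPM in F0-CD and to 900.3 and 655 CPM in F0-LPD, against at most 150 CPM in F1. The part of these differences in the results below was not tested. Because the tissue was measured in bulk, a different number of T cells and a different amount of RNA per T cell cannot be told apart.

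All members had reads in every mouse. On the deposited RPKM scale, which divides by exon length and so allows genes to be compared, the highest median over the 10 mice was that of Trbc2, at 29.7 RPKM, and the lowest that of Gzmb, at 0.303 RPKM. After Trbc2 came Trac at 15.1 RPKM, Ccl5 at 12.5 RPKM, Trbc1 at 12.3 RPKM and Tcf7 at 12.2 RPKM. These neighbours were not separated by the spread among mice, since Trac ranged from 10.3 to 19.0 RPKM and Trbc1 from 8.01 to 20.8 RPKM. The CD3 chains were lower per length, with medians of 4.57 RPKM for Cd3d, 4.06 RPKM for Cd3e and 3.44 RPKM for Cd3g. Cytotoxic granule genes lay at the lower end, Prf1 at 0.980 RPKM and Gzma at 0.778 RPKM, beside the regulatory T cell factor Foxp3 at 0.754 RPKM.

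In F1, most T cell genes had higher levels in the pLPD offspring than in the offspring of control fathers, although no single gene passed the adjusted test. Of the 36 members tested (Gzmb had too few reads), 33 had a log2 fold change above 0, or 91.7%, while 51.4% of all genes tested did, and the median was 0.35 against 0.01 over all genes. An unadjusted p under 0.05 was reached by 23 members, all of them higher, or 63.9%, where 6.57% of all genes tested were higher at that level and 8.76% lower. No member passed the adjusted threshold of 0.05 in edgeR in either direction (0.142% of all genes were called higher and 1.02% lower). DESeq2 called 6 members higher, and over all genes 375 of 14049 in either direction, against 164 in edgeR. In 15 members every F1-LPD mouse was above every F1-CD mouse, and in 1, Prf1, every F1-LPD mouse was below, where 9.21% and 10.9% of all genes did not overlap in these directions. The summed level of the 37 genes was 1102, 994 and 1106 CPM in the F1-CD mice and 1507, 1477 and 1178 CPM in the F1-LPD mice, a ratio of means of 1.30 without overlap.

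**Figure D1:**
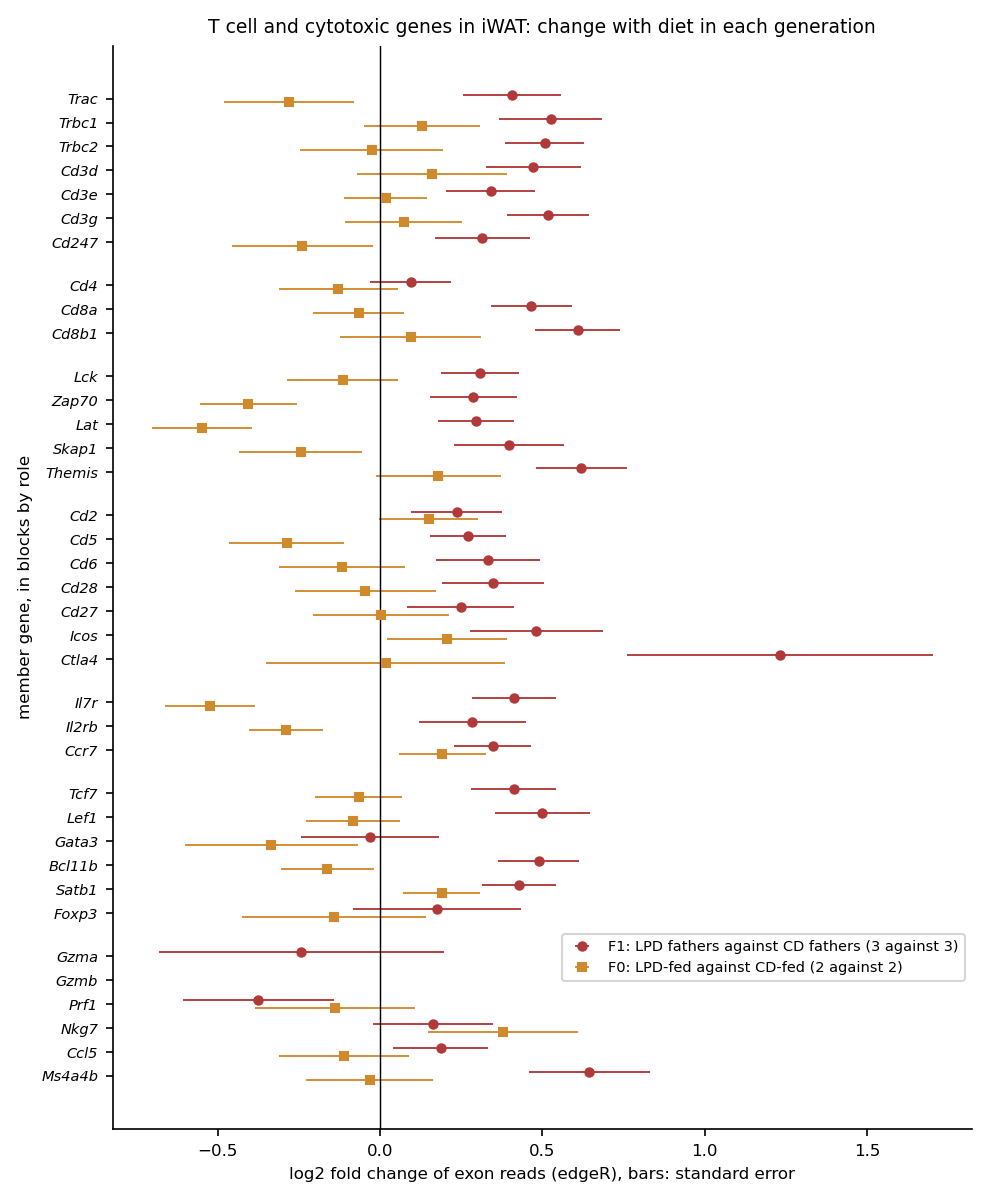
Log2 fold change of each member (points) with its standard error (bars) for the paternal diet in F1 and for the diet in F0, in blocks by role. In F1 33 of 36 points lie right of 0 and in F0 13 of 35 do; Gzma and Gzmb were not tested in F0, nor Gzmb in F1.

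The genes of the CD3 chains lie side by side on chromosome 9, Cd3g and Cd3d pointing away from each other, and they are shown here because all 3 had log2 fold changes above 0 in F1. Cd3g lies at chr9:44969572-44980431 on the minus strand, Cd3d at chr9:44981786-44987339 on the plus strand and Cd3e at chr9:44998740-45009627 on the minus strand (mm10). The 250 bases before the RefSeq start of each gene (GRCm38.p6, written in the direction of the gene) are chr9:44981536-44981785 for Cd3d, chr9:45009612-45009861 for Cd3e, whose RefSeq start lies inside the gene as the deposited tables place it, and chr9:44980432-44980681 for Cd3g. Capitals mark every match, on either strand, to 4 short motifs: CTTTGA for the TCF and LEF factors, TGTGGT for RUNX factors, AGGAAG for ETS factors and AGATAA for GATA factors.
Cd3d: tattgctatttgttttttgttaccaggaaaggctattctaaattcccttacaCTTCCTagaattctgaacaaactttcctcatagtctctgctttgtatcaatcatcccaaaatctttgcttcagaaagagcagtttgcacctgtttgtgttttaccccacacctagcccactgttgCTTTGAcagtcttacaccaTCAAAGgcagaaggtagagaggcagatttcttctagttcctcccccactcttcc
Cd3e: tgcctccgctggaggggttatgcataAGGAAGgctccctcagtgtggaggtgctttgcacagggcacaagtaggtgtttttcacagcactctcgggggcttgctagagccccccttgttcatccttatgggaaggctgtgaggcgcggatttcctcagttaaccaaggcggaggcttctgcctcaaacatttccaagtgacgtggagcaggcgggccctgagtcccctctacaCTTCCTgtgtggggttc
Cd3g: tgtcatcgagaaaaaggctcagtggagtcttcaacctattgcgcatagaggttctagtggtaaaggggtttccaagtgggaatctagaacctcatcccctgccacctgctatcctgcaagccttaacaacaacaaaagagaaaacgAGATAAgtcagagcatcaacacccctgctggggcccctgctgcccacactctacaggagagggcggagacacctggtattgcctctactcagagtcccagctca
Cd3d held CTTTGA in both directions, beginning 73 and 54 bases before the start, and AGGAAG on the opposite strand, Cd3e held AGGAAG on each strand, and Cd3g held AGATAA. Of 32851 RefSeq promoter windows of this length, 13.8% held CTTTGA, 14.0% TGTGGT, 29.5% AGGAAG and 9.99% AGATAA. A match is a description of the letters only. The RefSeq table held 37 windows for 24 of the members, and of these genes 14 held AGGAAG, 6 TGTGGT, 4 CTTTGA and 2 AGATAA in at least 1 window. Counted by window, as for all genes, the shares among the 37 were 43.2% for AGGAAG, 16.2% for TGTGGT, 10.8% for CTTTGA and 5.41% for AGATAA. Icos, Ccr7, Ccl5, Cd28, Cd6, Skap1, Trbc1, Il2rb, Cd2, Trbc2, Cd4, Cd8b1 and Trac had no entry.

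The antigen receptor and CD3 chains were 7 of 7 above 0 in F1, with a median log2 fold change of 0.47, and 6 had an unadjusted p under 0.05. Cd3g, the gamma chain of CD3, was at 24.0, 19.9 and 23.5 CPM in the F1-CD mice and 31.5, 35.1 and 29.0 CPM in the F1-LPD mice. Every pLPD mouse was above every F1-CD mouse, and the log2 fold change was 0.52 (SE 0.13, adjusted p = 0.0752). Cd3d, the delta chain, was at 17.1, 20.8 and 17.3 CPM in the F1-CD mice and 27.6, 27.4 and 21.4 CPM in the F1-LPD mice, again without overlap, with a log2 fold change of 0.47 (SE 0.15, adjusted p = 0.151). Cd3e, the epsilon chain and the usual marker of T cells, was at 41.7, 34.0 and 35.1 CPM in the F1-CD mice and 49.6, 51.9 and 37.6 CPM in the F1-LPD mice. Here the third F1-LPD mouse fell within the F1-CD range, and the log2 fold change was 0.34 (SE 0.14, adjusted p = 0.264). Trbc2, a constant segment of the receptor beta chain, was at 41.6, 42.1 and 48.4 CPM in the F1-CD mice and 64.2, 69.7 and 52.2 CPM in the F1-LPD mice, without overlap, with a log2 fold change of 0.51 (SE 0.12, adjusted p = 0.0703). Trbc1, the other beta constant segment, was at 17.7, 21.2 and 22.7 CPM in the F1-CD mice and 31.1, 33.6 and 23.2 CPM in the F1-LPD mice, also without overlap, with a log2 fold change of 0.53 (SE 0.16, adjusted p = 0.142). These neighbours on chromosome 6 are near copies of each other, and 73.0% of Trbc1 reads and 70.4% of Trbc2 reads mapped uniquely, so the split between them is uncertain. Their ratio, Trbc1 to Trbc2, was 0.466 ± 0.0388 in F1-CD and 0.471 ± 0.0224 in F1-LPD (SD, n = 3 each), ranges that overlapped. Trac, the alpha constant segment, was at 31.7, 23.6 and 28.1 CPM in the F1-CD mice and 41.6, 38.4 and 29.5 CPM in the F1-LPD mice, and the third F1-LPD mouse lay within the F1-CD range. Cd247, the signalling zeta chain, was at 21.3, 16.8 and 19.2 CPM in the F1-CD mice and 25.7, 25.0 and 19.9 CPM in the F1-LPD mice, again with the third F1-LPD mouse in the F1-CD range. The log2 fold changes were 0.41 for Trac and 0.32 for Cd247.

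Of the coreceptors, both chains of CD8 separated the F1 groups and Cd4 did not, and none of them passed the adjusted test. Cd8b1, the beta chain of CD8, was at 20.0, 19.4 and 22.7 CPM in the F1-CD mice and 33.5, 33.5 and 27.0 CPM in the F1-LPD mice. It did not overlap, and its log2 fold change of 0.61 (SE 0.13, adjusted p = 0.0512) had the lowest adjusted p of the 36 members tested in F1. Cd8a, the alpha chain, which dendritic cells and some innate lymphocytes also carry, was at 47.4, 36.9 and 47.6 CPM in the F1-CD mice and 65.1, 62.8 and 52.7 CPM in the F1-LPD mice, without overlap, with a log2 fold change of 0.47 (SE 0.12, adjusted p = 0.101). Cd4, the coreceptor of helper and regulatory T cells, was at 53.3, 42.4 and 47.3 CPM in the F1-CD mice and 54.2, 54.4 and 42.7 CPM in the F1-LPD mice. Its groups overlapped, and the log2 fold change was 0.09 (SE 0.12, adjusted p = 0.774). The ratio of Cd8a to Cd4 within a mouse was 0.889, 0.872 and 1.01 in F1-CD and 1.20, 1.15 and 1.23 in F1-LPD. The lowest pLPD mouse was thus above the highest F1-CD mouse, including the third F1-LPD mouse, in which the T cell genes as a group were the lowest of the 3. In F0 the ratio was 0.920 and 0.877 with the control diet and 0.863 and 1.07 with the LPD, which overlapped. With 3 mice against 3 an exact permutation test of such a ratio cannot give a two-sided p below 0.1, and none was run.

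**Figure D2:**
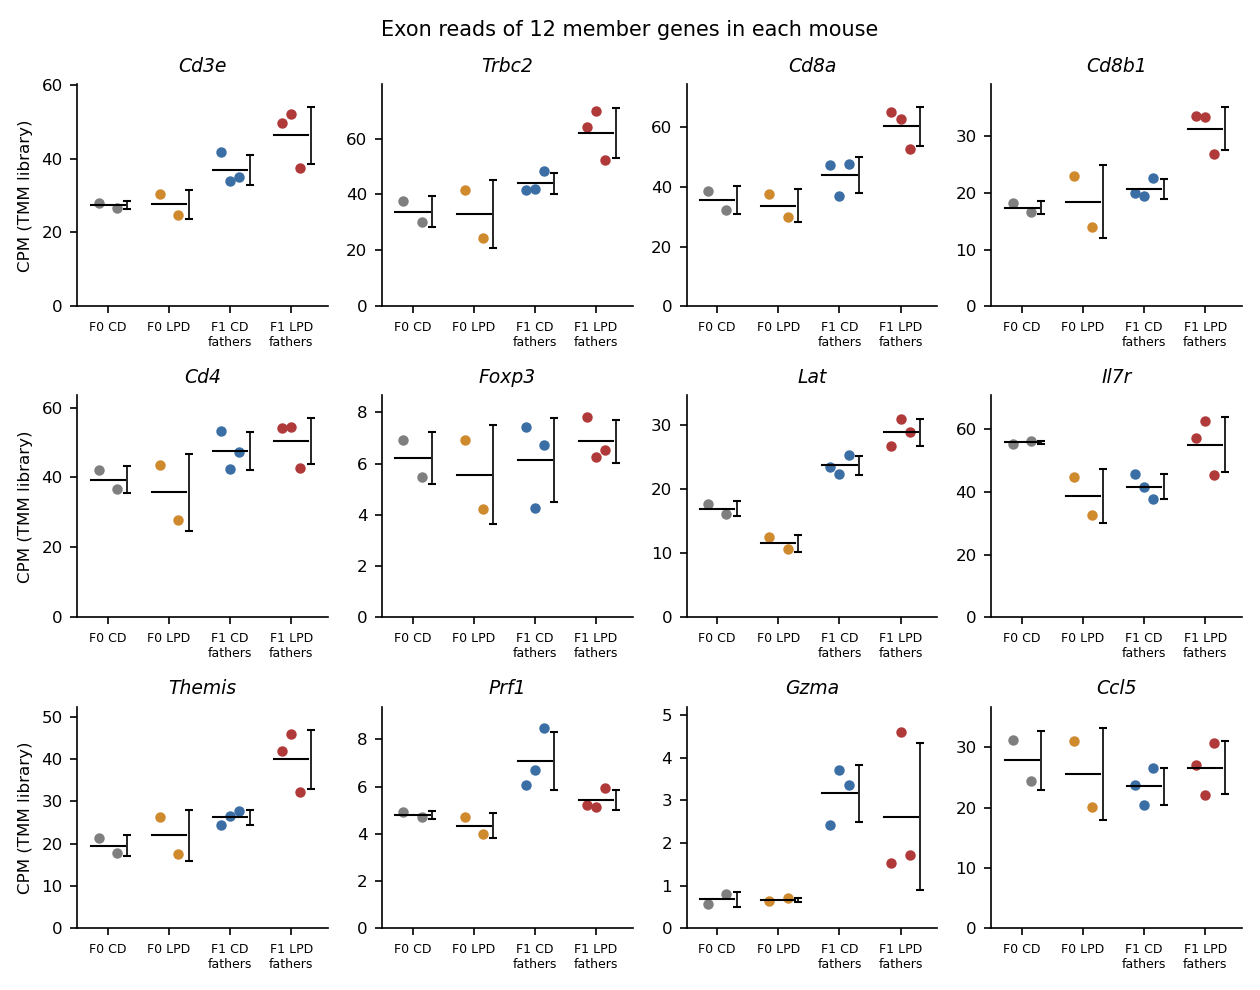
Level of 12 members in each of the 10 mice in CPM of the TMM-normalised library (points), with the mean (line) and SD (bar) of each group. Cd8a, Cd8b1, Trbc2 and Themis do not overlap between the F1 groups and are higher in the pLPD offspring, Cd4 and Foxp3 overlap, Prf1 is lower without overlap, and Lat moves in opposite directions in F0 and F1.

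The genes of receptor signalling were 5 of 5 above 0 in F1, and 4 had an unadjusted p under 0.05. Themis, an adaptor needed for the selection of T cells in the thymus, was at 24.4, 26.5 and 27.8 CPM in the F1-CD mice and 42.0, 45.8 and 32.3 CPM in the F1-LPD mice. No mouse overlapped, and the log2 fold change was 0.62 (SE 0.14, adjusted p = 0.0578). Lck, the kinase that starts receptor signalling, was at 60.0, 45.9 and 61.0 CPM in the F1-CD mice and 74.7, 67.8 and 62.7 CPM in the F1-LPD mice, without overlap, with a log2 fold change of 0.31 (SE 0.12, adjusted p = 0.253). Lat, the scaffold of the signalling complex, was at 23.5, 22.5 and 25.4 CPM in the F1-CD mice and 26.8, 31.1 and 29.0 CPM in the F1-LPD mice, without overlap, with a log2 fold change of 0.30 (SE 0.12, adjusted p = 0.258). Skap1, an adaptor that couples the receptor to integrin adhesion, was at 27.9, 23.7 and 24.2 CPM in the F1-CD mice and 38.0, 37.2 and 23.8 CPM in the F1-LPD mice, and the third F1-LPD mouse lay in the F1-CD range (log2 fold change 0.40). Zap70, the kinase that Lck activates, was at 20.2, 23.3 and 24.2 CPM in the F1-CD mice and 30.5, 27.9 and 23.7 CPM in the F1-LPD mice, with overlap and a log2 fold change of 0.29. Skap1, Cd247 and Themis carried most of their reads outside exons (95.6%, 91.5% and 87.7%), and when all reads on a gene were counted Themis was called higher in F1, with a log2 fold change of 0.62.

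Among the adhesion, costimulation and checkpoint receptors, 7 of 7 were above 0 in F1 and 4 had an unadjusted p under 0.05. Cd5, an inhibitor of receptor signalling on T cells and some B cells, was at 25.9, 23.4 and 25.5 CPM in the F1-CD mice and 31.5, 31.2 and 26.8 CPM in the F1-LPD mice and did not overlap, with a log2 fold change of 0.27 (SE 0.12, adjusted p = 0.299). Cd28, the main costimulatory receptor, was at 17.3, 14.8 and 16.3 CPM in the F1-CD mice and 19.1, 24.4 and 17.3 CPM in the F1-LPD mice, the groups just not overlapping, with a log2 fold change of 0.35 (SE 0.16, adjusted p = 0.325). Icos, a costimulator of activated T cells, was at 11.5, 9.84 and 6.72 CPM in the F1-CD mice and 11.9, 13.4 and 13.6 CPM in the F1-LPD mice, without overlap, with a log2 fold change of 0.48 (SE 0.21, adjusted p = 0.291). Ctla4, which restrains activation and is high in regulatory T cells, had the largest log2 fold change of the members in F1, 1.23 (SE 0.47, adjusted p = 0.242). It rested on few reads, 19, 5 and 9 in the F1-CD mice and 18, 25 and 25 in the F1-LPD mice. The value was 1.92 without the first F1-CD mouse, 0.83 without the second and 0.70 with all reads on the gene, and it was not called in any of these. Cd6, an adhesion receptor related to Cd5, was at 25.5, 27.2 and 34.8 CPM in the F1-CD mice and 41.6, 38.8 and 28.8 CPM in the F1-LPD mice, with overlap. Cd2, an adhesion receptor of T and natural killer cells, and Cd27, a costimulator of the TNF receptor family, had log2 fold changes of 0.24 and 0.25, also with overlap. Cd27 was at 20.6, 15.6 and 20.2 CPM in the F1-CD mice and 26.5, 21.6 and 18.4 CPM in the F1-LPD mice, and only 26.9% of its exon reads mapped uniquely.

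Of the cytokine and chemokine receptors, Il7r, which receives the survival signal of naive and memory T cells, was at 45.7, 41.4 and 37.9 CPM in the F1-CD mice and 57.1, 62.6 and 45.5 CPM in the F1-LPD mice. The lowest pLPD mouse lay just under the highest F1-CD mouse, and the log2 fold change was 0.41 (SE 0.13, adjusted p = 0.155). Ccr7, which guides T cells and mature dendritic cells into lymph nodes, was at 41.7, 39.3 and 52.1 CPM in the F1-CD mice and 57.6, 58.6 and 51.9 CPM in the F1-LPD mice, with an overlap of the same small size and a log2 fold change of 0.35 (SE 0.12, adjusted p = 0.192). Il2rb, a chain of the receptors for interleukin-2 and interleukin-15, was at 22.9, 27.3 and 24.7 CPM in the F1-CD mice and 34.3, 34.0 and 22.3 CPM in the F1-LPD mice, with overlap and a log2 fold change of 0.28.

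The transcription factors of the T lineage were 5 of 6 above 0 in F1, and 4 had an unadjusted p under 0.05. Bcl11b, which fixes T cell identity, was at 54.6, 53.2 and 63.7 CPM in the F1-CD mice and 94.2, 77.3 and 67.6 CPM in the F1-LPD mice and did not overlap, with a log2 fold change of 0.49 (SE 0.13, adjusted p = 0.0902). Satb1, an organiser of chromatin in thymocytes that other cells also express, was at 104, 98.5 and 101 CPM in the F1-CD mice and 152, 142 and 111 CPM in the F1-LPD mice, without overlap, with a log2 fold change of 0.43 (SE 0.11, adjusted p = 0.101). Lef1, a factor of naive T cells that binds the TCF and LEF motif, was at 50.2, 39.6 and 39.9 CPM in the F1-CD mice and 70.0, 63.9 and 48.0 CPM in the F1-LPD mice. Tcf7, a related factor with the same motif, was at 83.1, 60.5 and 64.2 CPM in the F1-CD mice and 104, 90.7 and 80.1 CPM in the F1-LPD mice. In each gene 1 pLPD mouse lay below the highest F1-CD mouse, and the log2 fold changes were 0.50 (SE 0.15, adjusted p = 0.127) for Lef1 and 0.41 (SE 0.13, adjusted p = 0.164) for Tcf7. Only 32.1% of the Tcf7 reads were unique, and with unique reads alone its log2 fold change was 0.20. Gata3, a factor of helper and innate cells, was at 7.69, 6.94 and 9.00 CPM in the F1-CD mice and 7.20, 8.81 and 6.86 CPM in the F1-LPD mice, fully overlapping, with a log2 fold change of -0.03 (SE 0.21, adjusted p = 0.964). Foxp3, the factor that defines regulatory T cells, was at 7.42, 4.28 and 6.72 CPM in the F1-CD mice and 7.81, 6.24 and 6.55 CPM in the F1-LPD mice, also overlapping. Its log2 fold change of 0.18 (SE 0.26, adjusted p = 0.802) became -0.04 without the second F1-CD mouse, and only 47.8% of its exon reads mapped uniquely.

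The genes of cytotoxic cells lay on both sides of 0 in F1, 3 of 5 tested above it, and 1 had an unadjusted p under 0.05. Prf1, perforin, which opens the membrane of the target cell, was at 6.07, 6.71 and 8.47 CPM in the F1-CD mice and 5.21, 5.15 and 5.92 CPM in the F1-LPD mice. Each pLPD mouse was below each F1-CD mouse, but the log2 fold change of -0.37 (SE 0.23, adjusted p = 0.487) did not pass the test. Gzma, a protease of cytotoxic and natural killer granules, was at 2.43, 3.70 and 3.36 CPM in the F1-CD mice and 1.53, 4.61 and 1.71 CPM in the F1-LPD mice. The second F1-LPD mouse was the highest of all and the other 2 were below the F1-CD mice, and the log2 fold change was -0.24 (SE 0.44, adjusted p = 0.846). Gzmb, the granzyme that starts death in the target, had 7, 18 and 12 reads in the F1-CD mice and 2, 5 and 8 in the F1-LPD mice, the lowest count under the 3-read limit. Nkg7, a granule membrane protein, was at 7.96, 9.84 and 8.20 CPM in the F1-CD mice and 10.4, 8.95 and 9.66 CPM in the F1-LPD mice. Ccl5, a chemokine of memory and effector T cells, was at 23.7, 20.4 and 26.5 CPM in the F1-CD mice and 27.1, 22.1 and 30.7 CPM in the F1-LPD mice. Both overlapped, with log2 fold changes of 0.16 and 0.19. Ms4a4b, a surface protein found on naive as well as activated T cells, was at 36.4, 40.0 and 47.3 CPM in the F1-CD mice and 66.1, 80.8 and 44.6 CPM in the F1-LPD mice. The third F1-LPD mouse lay within the F1-CD range, and the log2 fold change was 0.64 (SE 0.19, adjusted p = 0.125). Prf1 lies at chr10:61297833-61304680 on the plus strand, and its RefSeq start lies just inside the gene as the deposited tables place it. Its promoter window, chr10:61297586-61297835, is shown as that of the only member lower without overlap in F1, with the same motifs in capitals.
Prf1: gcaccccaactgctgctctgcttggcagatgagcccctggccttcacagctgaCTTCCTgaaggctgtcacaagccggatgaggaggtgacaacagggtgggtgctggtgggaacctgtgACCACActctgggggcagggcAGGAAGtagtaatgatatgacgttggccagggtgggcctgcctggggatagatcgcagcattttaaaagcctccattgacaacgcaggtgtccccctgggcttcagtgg
It held AGGAAG on each strand and TGTGGT on the opposite strand.

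The 3 pLPD mice differed among themselves. The first was the highest of all 6 F1 mice in 19 of the 37 members, the second in 12 and the third in 3, while the second F1-CD mouse was the lowest in 21. The share of reads outside exons was 48.4% in the first F1-LPD mouse, 41.8% in the second and 40.7% in the third. Without the third F1-LPD mouse 6 members were called higher in edgeR, and without the third F1-CD mouse 5 were. The first fit called 162 of 14361 genes in either direction and the second 510 of 14322, against 164 of 14049 with all F1 mice. The other 4 fits that left out 1 mouse called no member.

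**Figure D3:**
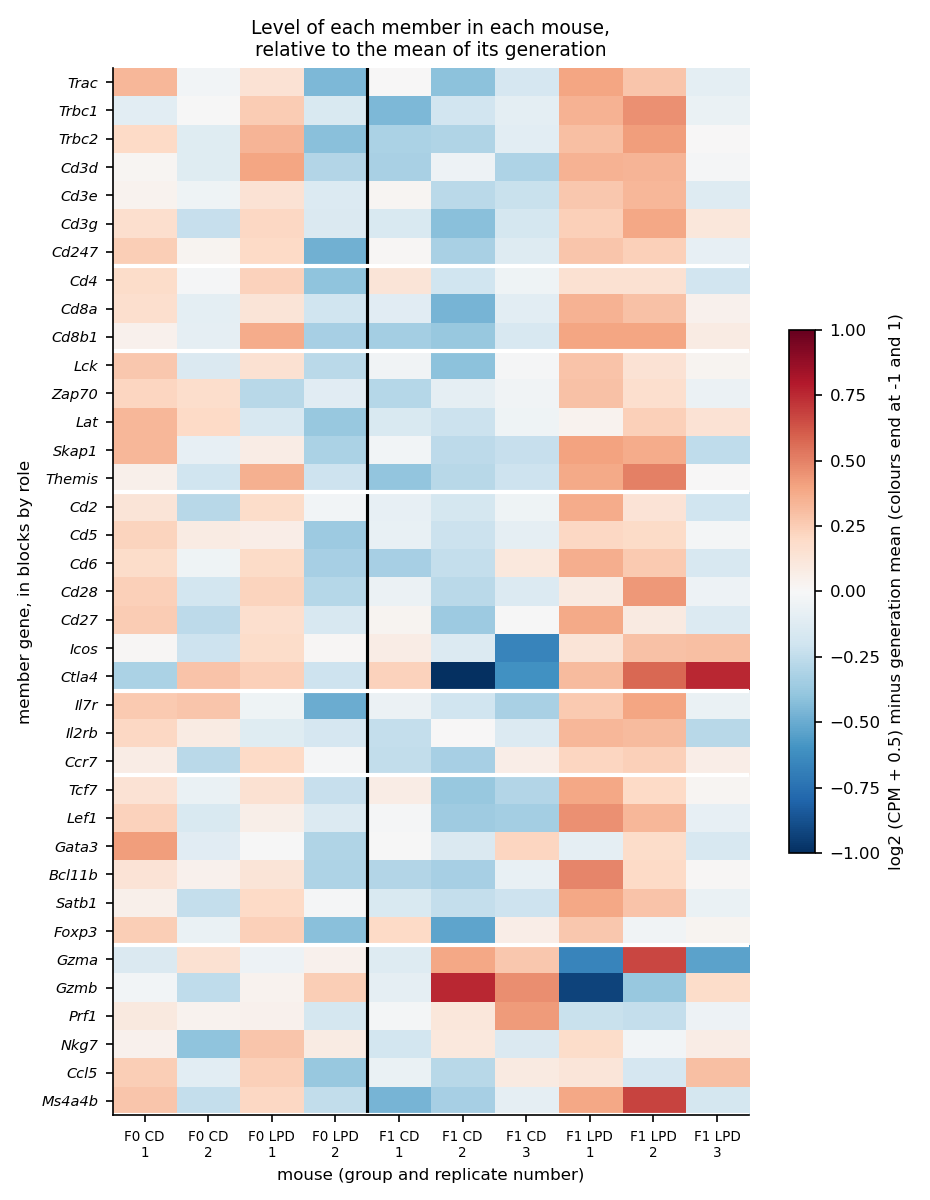
Log2 CPM (0.5 added) of each member in each mouse minus the mean of its generation, red above and blue below, with colours ending at -1 and 1. The first 2 pLPD mice are red in most rows of the receptor blocks and the third is pale, the second F0-LPD mouse is blue in most rows, and the rows of Gzma, Gzmb and Prf1 differ from those above them.

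In F0, the T cell genes of the adults fed the LPD were not shifted upward. Of the 35 members tested, 13 were above 0, or 37.1%, against 50.1% of all genes tested, and the median was -0.07 against 0.00. No member was called in edgeR (1.18% of all genes were called higher and 1.32% lower) or in DESeq2. An unadjusted p under 0.05 was reached by 4 members, all lower, or 11.4%, where 8.2% of all genes were lower at that level and 7.53% higher, and DESeq2 gave 2 such members, also lower. The summed level was 948 and 794 CPM in F0-CD and 942 and 719 CPM in F0-LPD, which overlapped. The mice of a group differed as much as the diets: the second F0-LPD mouse was the lowest of the 4 in 25 of 37 members, and the first F0-CD mouse was the highest in 18 and the first F0-LPD mouse in 15. Left out in turn, single mice moved the count of members above 0 between 5 and 26.

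The receptor chains and coreceptors overlapped in F0. Cd3e was at 28.1 and 26.6 CPM in the F0-CD mice and 30.4 and 24.8 CPM in the F0-LPD mice. Cd3g was at 21.7 and 16.4 CPM in the F0-CD mice and 22.4 and 17.4 CPM in the F0-LPD mice. Cd3d was at 11.9 and 10.7 CPM in the F0-CD mice and 15.6 and 9.47 CPM in the F0-LPD mice. In each of the CD3 chains the first F0-LPD mouse was the highest of the 4. Trbc2 was at 37.7 and 30.1 CPM in the F0-CD mice and 41.6 and 24.4 CPM in the F0-LPD mice. Trbc1 was at 12.1 and 13.0 CPM in the F0-CD mice and 15.7 and 11.7 CPM in the F0-LPD mice. Trac was at 32.6 and 25.2 CPM in the F0-CD mice and 28.5 and 18.7 CPM in the F0-LPD mice. The second F0-LPD mouse was the lowest of the 4 in all 3 of these chains, and over the 6 genes the log2 fold changes ran from -0.28 for Trac to 0.16 for Cd3d. Cd8a was at 38.7 and 32.2 CPM in the F0-CD mice and 37.6 and 29.8 CPM in the F0-LPD mice. Cd8b1 was at 18.2 and 16.6 CPM in the F0-CD mice and 23.0 and 13.9 CPM in the F0-LPD mice. Cd4 was at 42.1 and 36.7 CPM in the F0-CD mice and 43.6 and 28.0 CPM in the F0-LPD mice. The same mouse, the second F0-LPD mouse, was the lowest in each of the coreceptors.

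The transcription factors overlapped in F0 as well, 1 of 6 above 0. Bcl11b was at 37.8 and 35.6 CPM in the F0-CD mice and 37.6 and 27.7 CPM in the F0-LPD mice. Satb1 was at 101 and 82.3 CPM in the F0-CD mice and 112 and 96.6 CPM in the F0-LPD mice. Lef1 was at 35.4 and 27.1 CPM in the F0-CD mice and 31.3 and 27.4 CPM in the F0-LPD mice. Their log2 fold changes were -0.16, 0.19 and -0.08, and Satb1 was the one above 0. Tcf7 was at 61.3 and 52.7 CPM in the F0-CD mice and 61.5 and 47.1 CPM in the F0-LPD mice. Foxp3 was at 6.94 and 5.49 CPM in the F0-CD mice and 6.93 and 4.21 CPM in the F0-LPD mice. In both, the second F0-LPD mouse was the lowest of the 4. Of the surface receptors, Ccr7 was at 41.1 and 32.3 CPM in the F0-CD mice and 44.9 and 38.6 CPM in the F0-LPD mice. Cd28 was at 15.6 and 11.5 CPM in the F0-CD mice and 15.3 and 10.6 CPM in the F0-LPD mice. Icos was at 9.40 and 7.99 CPM in the F0-CD mice and 10.6 and 9.36 CPM in the F0-LPD mice. The diets overlapped in these receptors and also in Cd6, at 18.1 and 15.5 CPM in the F0-CD mice and 18.3 and 12.5 CPM in the F0-LPD mice. Cd27 was at 16.1 and 11.1 CPM in the F0-CD mice and 15.1 and 11.9 CPM in the F0-LPD mice. Ctla4 had 19 and 35 reads in the F0-CD mice and 32 and 20 in the F0-LPD mice. Both overlapped, with log2 fold changes of 0.00 and 0.02. Among the genes of cytotoxic cells, Prf1 was at 4.92 and 4.69 CPM in the F0-CD mice and 4.73 and 3.98 CPM in the F0-LPD mice. Ccl5 was at 31.2 and 24.4 CPM in the F0-CD mice and 31.0 and 20.1 CPM in the F0-LPD mice. Ms4a4b was at 33.2 and 23.1 CPM in the F0-CD mice and 31.6 and 23.0 CPM in the F0-LPD mice. All 3 overlapped, while Gzma, with 5 and 8 reads in F0-CD and 6 and 6 in F0-LPD, and Gzmb, with 7 and 6 and 8 and 9, had too few reads to be tested.

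In F0, 5 of the 35 members tested, or 14.3%, had both LPD-fed mice below both controls, a smaller share than the 23.6% of all genes that did. They were Zap70, Lat, Cd5, Il7r and Il2rb. In 1 member, Nkg7, or 2.86%, both were above, against 22.8% of all genes. Lat was at 17.8 and 16.2 CPM in the F0-CD mice and 12.5 and 10.6 CPM in the F0-LPD mice, with a log2 fold change of -0.55 (SE 0.15, adjusted p = 0.114). Il7r was at 55.4 and 56.2 CPM in the F0-CD mice and 44.9 and 32.5 CPM in the F0-LPD mice, with a log2 fold change of -0.52 (SE 0.14, adjusted p = 0.0939), the lowest adjusted p of the members in F0. In both genes the second F0-LPD mouse was the lowest. Zap70, the kinase upstream of Lat, had 138 and 150 reads in the F0-CD mice and 103 and 104 in the F0-LPD mice, with means of 15.2 ± 0.328 CPM (SD, n = 2) and 11.5 ± 0.949 CPM (SD, n = 2) and a log2 fold change of -0.41 (SE 0.15, adjusted p = 0.228). Il2rb was at 30.1 and 27.6 CPM in the F0-CD mice and 24.0 and 23.2 CPM in the F0-LPD mice. Cd5 was at 17.1 and 15.5 CPM in the F0-CD mice and 15.3 and 11.2 CPM in the F0-LPD mice. The log2 fold changes were -0.29 for Il2rb and -0.29 for Cd5. The other signalling genes overlapped. Skap1 was at 21.7 and 16.2 CPM in the F0-CD mice and 18.1 and 13.7 CPM in the F0-LPD mice. Lck was at 46.9 and 35.0 CPM in the F0-CD mice and 43.1 and 32.0 CPM in the F0-LPD mice. Themis was at 21.3 and 17.8 CPM in the F0-CD mice and 26.3 and 17.7 CPM in the F0-LPD mice, and was the one of the 5 above 0. Nkg7, at 7.28 and 5.19 CPM in the F0-CD mice and 8.62 and 7.49 CPM in the F0-LPD mice, had a log2 fold change of 0.38 (SE 0.23, adjusted p = 0.494). Several of these genes are also expressed by natural killer or innate lymphoid cells, and of the 11 markers of those cells 8 were tested in F0, of which 2 were above 0, with a median log2 fold change of -0.10. An unadjusted p under 0.05 was reached by 2 of them, both lower, and 1 of these passed the adjusted threshold. The other, Klrb1c, a natural killer cell receptor named here after its values were seen, was at 2.91 CPM in the mean of F0-CD and 1.44 CPM in that of F0-LPD, without overlap, with a log2 fold change of -1.01 (SE 0.35, adjusted p = 0.193). Their part in the lower values of Lat, Zap70, Il7r and Il2rb was not tested.

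Whether the diet effect differed between the 2 generations was tested as the difference of the F1 and F0 log2 fold changes in a fit of all 10 libraries. It was above 0 in 33 of 37 members, or 89.2%, against 49.6% of all genes, with a median of 0.43 against -0.00, and 10 members had an unadjusted p under 0.05, all above 0, or 27.0%, against 4.91% of all genes above 0 and 7.58% below. One member, Lat, was called, or 2.70%, where 0.357% of all genes were called above 0 and 0.893% below. Its difference was 0.84 (SE 0.18, adjusted p = 0.0468), with every pLPD offspring above every F1-CD mouse and every LPD-fed adult below every F0-CD mouse. The call did not hold without most single mice. In 10 fits that each left out 1 mouse the difference stayed between 0.73 and 0.96, but it was called in only 2, with adjusted p from 0.0305 to 0.241, and it was not called when all reads on the gene were counted (0.71, adjusted p = 0.0749). Over the alternatives that kept all mice the adjusted p ran from 0.0103 to 0.0749. Lat lies at chr7:126363824-126369570 on the minus strand. The 250 bases before its RefSeq start, chr7:126369569-126369818, are shown because it was the only member called here. That start lies just inside the gene as the deposited tables place it.
Lat: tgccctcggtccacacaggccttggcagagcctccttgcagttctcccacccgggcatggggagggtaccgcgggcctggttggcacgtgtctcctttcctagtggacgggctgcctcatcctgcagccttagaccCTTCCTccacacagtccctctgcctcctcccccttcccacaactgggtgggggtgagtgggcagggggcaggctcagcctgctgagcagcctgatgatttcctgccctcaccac
The window held 1 match, AGGAAG on the opposite strand.

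Il7r had the largest difference above 0 between generations after Ctla4 (1.21, on few reads), 0.93 (SE 0.21, adjusted p = 0.0529). It was called with DESeq2 (0.94) and in 6 of 7 alternatives that kept all mice, with adjusted p from 9.28e-06 to 0.0519. The lowest was that with no filter, where 890 of 23517 genes were called in either direction, against 189 of 15111 as reported. Leaving out 1 mouse moved the Il7r difference between 0.72 and 1.18. Of the fits that left out 1 F1 mouse, only the fit without the third F1-LPD mouse called it. The next lowest adjusted p after Lat and Il7r were those of Zap70, 0.68 (SE 0.20, adjusted p = 0.136), and Bcl11b, 0.64 (SE 0.22, adjusted p = 0.194). Cd5, with each LPD-fed adult below the controls and each pLPD offspring above them, had a difference of 0.55 (SE 0.21, adjusted p = 0.269). The members below 0 were Gzma (-0.22), Gzmb (-1.51), Prf1 (-0.24) and Nkg7 (-0.22), all genes of cytotoxic granules, none with an unadjusted p under 0.05. All F1 mice were young and all F0 mice adult, and each generation has its own libraries, so generation, age and preparation cannot be told apart in these differences.

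The control groups were compared to describe the levels at the different ages, F1-CD against F0-CD. Of 37 members 31 were above 0 in the 5-week-old mice, or 83.8%, against 50.9% of all genes, and the median log2 difference was 0.38 against 0.01. Other markers differed in this comparison too, and their part in it was not tested. The 6 skeletal muscle markers were all called lower in F1-CD (median -4.01), the 8 adipocyte markers were all below 0 with 5 called lower (median -0.41), and 12 of 15 B cell markers were below 0 with 3 called lower (median -0.10). Higher calls were made for 8 members, or 21.6%, where 10.1% of all genes were called higher and 8.78% lower, and no member was called lower in edgeR or DESeq2, with Il7r alone lower at an unadjusted p under 0.05. The groups did not overlap in 19 members that were higher and 2, Il7r and Il2rb, that were lower, against 25.2% and 24.7% of all genes. The receptor chains Trbc1 and Cd3d differed by 0.71 (SE 0.19, adjusted p = 0.0184) and 0.71 (SE 0.20, adjusted p = 0.0261), and the signalling genes Zap70 and Lat by 0.57 (SE 0.14, adjusted p = 0.0140) and 0.48 (SE 0.13, adjusted p = 0.0189). Cd6 and Cd5, the related scavenger receptor family members, differed by 0.80 (SE 0.20, adjusted p = 0.0145) and 0.61 (SE 0.14, adjusted p = 0.0107), and Bcl11b by 0.64 (SE 0.15, adjusted p = 0.0115). The largest difference was that of Gzma, at 0.560 and 0.799 CPM in F0-CD and 2.43, 3.70 and 3.36 CPM in F1-CD, with a log2 difference of 2.19 (SE 0.56, adjusted p = 0.0164) that rested on 5 and 8 reads in the adults. Il7r went the other way, -0.42 (SE 0.15, adjusted p = 0.0630). Without the first F0-CD mouse the median log2 difference of the members was 0.54, and without the second it was 0.22. Each of these fits rests on 1 F0-CD mouse, and fewer genes were called in them, among the members and over all genes. Against Cd3e, Foxp3 reads were fewer in F1-CD (ratio 0.165 ± 0.0347, SD, n = 3) than in F0-CD (0.227 ± 0.0285, SD, n = 2). Ccl5 reads were fewer likewise (0.641 ± 0.0996 against 1.01 ± 0.137). In each case the groups did not overlap, while neither ratio separated the diets within a generation. Only 47.8% of the Foxp3 exon reads mapped uniquely.

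Other genes of T cells, from lists that also had been written with results of these data known, also lay mostly above 0 in F1. Of 26 other genes of receptor signalling, 20 were above 0 in F1, 6 had an unadjusted p under 0.05, all higher, and none was called in edgeR. Their median was 0.19. The one with the most reads was Ptprc (CD45), the phosphatase of all white blood cells that activates Lck, with a mean of 389.7 ± 29.1 CPM in F1-CD and 466 ± 75.4 CPM in F1-LPD (SD, n = 3 each). Its log2 fold change was 0.27 in F1 and 0.25 in F0, neither called. Of 22 other surface and effector genes 17 were tested, 15 were above 0 in F1, 7 had an unadjusted p under 0.05 and none was called. In F0 these lists were 10 of 26 and 8 of 17 above 0. The 6 γδ T cell genes summed to 23.7, 25.3 and 16.3 CPM in F1-CD and 31.8, 25.1 and 24.6 CPM in F1-LPD, sums that overlapped. Of the 3 tested in F1 none was called and 1 had an unadjusted p under 0.05, Cd163l1, a scavenger receptor of γδ T cells, with a mean of 3.58 ± 1.34 CPM in F1-CD and 8.55 ± 3.48 CPM in F1-LPD (SD, n = 3 each), without overlap. Its log2 fold change was 1.24 (SE 0.35, adjusted p = 0.113). The sums of the 11 natural killer and innate lymphoid markers overlapped in F1, at 86.6, 90.9 and 75.3 CPM in F1-CD and 81.5, 79.9 and 85.4 CPM in F1-LPD.

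Markers of other cell types moved beside the T cell genes, and their part in the result was not tested. Of the 8 adipocyte markers, 6 were above 0 in F1 and 2 below, where 51.4% of all genes were above 0. Their median log2 fold change was 0.18, and 0 were called in edgeR. The 15 B cell markers were all above 0 in F1 with 0 called in edgeR, and summed to 1248, 1156 and 1339 CPM in F1-CD and 1516, 1591 and 1177 CPM in F1-LPD, a ratio of means of 1.14 with overlap. The third F1-LPD mouse was the lowest of its group in both the B cell and the T cell sums. In F0 the B cell markers were also all above 0, with Ms4a1 and Bank1 called higher, and summed to 1595 and 1334 CPM in F0-CD and 1792 and 1736 CPM in F0-LPD, a ratio of 1.20 without overlap, where the T cell genes had a ratio of 0.953. The 8 markers of lymph node stroma and high endothelial venules summed to 340.4, 298 and 319 CPM in F1-CD and 335, 313 and 339 CPM in F1-LPD, a ratio of 1.03 with overlap, and to 241 to 291 CPM in F0. Of the 10 macrophage and dendritic cell markers, 9 were below 0 in F1 and 4 were called lower (Adgre1, Csf1r, Cd163 and Lyz2). They summed to 985, 1079 and 1219 CPM in F1-CD and 704, 774 and 798 CPM in F1-LPD, a ratio of 0.693 without overlap. Of the 5 epithelial markers 3 were tested in F1, all below 0, and Krt8 and Krt18 were called lower, the list summing to 9.71, 8.56 and 12.8 CPM in F1-CD and 0.153, 3.25 and 1.09 CPM in F1-LPD with Krt5 at 0 in every pLPD mouse.

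**Figure D4:**
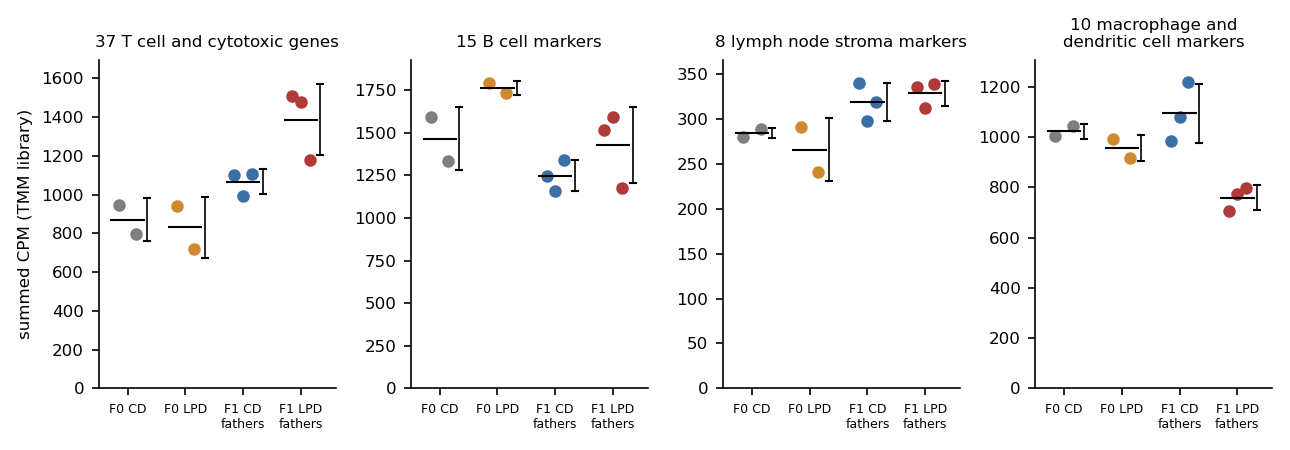
Summed CPM of the 37 members and of 3 marker lists in each mouse (points), with the mean (line) and SD (bar) of each group. The members are higher in all pLPD offspring, the B cell markers overlap in F1 and are higher in LPD-fed F0 mice, the lymph node stroma markers overlap between the diets, and the macrophage and dendritic cell markers are lower in all pLPD offspring.

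Within the groups the members varied together from mouse to mouse. The deviation of each gene from its group mean was correlated, over the 10 mice, with that of the mean of the members, as a description of points that share libraries and groups. The median Pearson r was 0.82 over the members, 0.70 over the 15 B cell markers, 0.15 over the lymph node stroma markers, -0.10 over the macrophage and dendritic cell markers and -0.72 over the 8 adipocyte markers, against -0.03 over all other genes of at least 1 CPM. The members most like the mean were Cd5 (0.97), Trbc2 (0.95) and Trac (0.95), each of which counts in that mean. The least like it were Gzmb (-0.48), Icos (0.10), Gzma (0.10), Ctla4 (0.11), Zap70 (0.15) and Prf1 (0.20). Outside the members, the 15 genes with the highest r, from 0.98 to 0.94, were Serpinb1a, Cd52, Srp54a_2, Rassf2, Mast3, Crlf3, Galnt6, Grap2, Arhgap45, Gm26546, Tor4a, Dnase1l3, Als2cl, Abcg3 and Inpp4b. Cd52 codes for a surface glycoprotein of lymphocytes, and Grap2 for an adaptor that binds Lat's partner Lcp2.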

How the data were processed

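Total RNA of iWAT was depleted of rRNA and sequenced as directional paired-end libraries, with mapping by the authors to mm10 (CLC Genomics Workbench). The deposited counts are raw read numbers for each gene, on its exons (total and uniquely mapped) and over its whole length, and whether they were counted by strand is not given in the sources used here. The deposited RPKM values were scaled by the authors to exon length and mapped reads, and served only to compare levels between genes.

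Total exon reads were tested in R 4.3.3 with edgeR 4.0.16 (filterByExpr, TMM, quasi-likelihood F test, two-sided, Benjamini-Hochberg over all genes tested, calls at an adjusted p under 0.05). The diets were compared within F1 (6 libraries, 14049 genes) and within F0 (4 libraries, 14581 genes), and the difference between generations and the control groups in a fit of all 10 libraries (15111 genes). The SE was taken as the absolute log2 fold change over the root of F. CPM come from the fit of 10 libraries. The fitting was tested on simulated data before use. Alternatives were DESeq2 1.42.0, its size factors, other filters, unique exon reads, all reads on the gene, a replicate block and leaving out each mouse. Replicates differed by more than sampling noise (chi-square per gene 4.59 to 13.1), so none was counted as a duplicate. No label says that replicate numbers pair the mice. In F1 the deviations of same-numbered mice correlated at 0.0521, 0.00386 and -0.000147, and those of differently numbered mice at -0.0715 to 0.0693. In F0 the value was 0.0547, but with 2 mice per group the check can only give the same size with either sign. Such correlations cannot show whether the mice were paired.

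The members and all lists were chosen with earlier results of these data known, so no p is given for a list. All members could be named, with values per mouse for those with an unadjusted p under 0.05 in any comparison and for Cd3e, Cd4, Cd8a, Foxp3, Gzma and Ccl5. From other lists, called genes and at most 4 of the highest CPM could be named, with the 15 genes whose pattern was nearest. The promoter windows and motifs were chosen after the values were seen. The result of 1 marker gene is not reported here.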

Additional observations from a re-analysis of the deposited data

Results flagged for a closer look

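In 2 members the log2 fold changes with diet had opposite signs in the 2 generations without overlap of the diets in either. Other members also differed in sign, such as Il7r (0.41 in F1 and -0.52 in F0), but their diets overlapped in at least 1 generation. For Lat, the log2 fold change was 0.30 in F1 and -0.55 in F0, without overlap of the diets in either generation, and the difference of 0.84 passed the adjusted threshold in the fit of 10 libraries (adjusted p = 0.0468), in 2 of 10 fits without 1 mouse and with an adjusted p of up to 0.241 in those fits. For Cd5 it was 0.27 in F1 and -0.29 in F0, again without overlap, and the difference of 0.55 did not pass it (adjusted p = 0.269). No group of 4 or more mice existed in which a single mouse could be tested against the others.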

How the results depend on the processing

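In F1 the number of members above 0 stayed within 1.5 times the 33 reported under every alternative, and no member was called lower under any. The number called higher was 0 in the reported fit, with DESeq2's size factors, with the replicate block and with all 10 libraries in 1 fit. It was 6 with DESeq2 (Bcl11b, Cd8b1, Ms4a4b, Satb1, Themis and Trbc2), 12 with no filter and 1 with at least 10 reads in every library. It was 2 with unique exon reads, 3 with all reads on the gene and 0 to 6 when 1 mouse was left out. Genes called in either direction were 164 as reported, 375 with DESeq2, 798 of 22256 with no filter and 184 with at least 10 reads. They were 233 with unique exon reads, 121 with all reads on the gene and 18 to 510 without 1 mouse. In F0 members called lower were 0 as reported, 2 with no filter and 2 with the replicate block (Il7r and Lat). Over all genes 364 of 14581 were called in either direction as reported and 1343 of 22064 with no filter. When 1 mouse was left out, members above 0 ranged from 5 to 26. The difference between generations was called for 1 member as reported (Lat), 2 with DESeq2, 6 with no filter and 2 with at least 10 reads. Called members were 2 with unique exon reads, 2 with all reads on the gene and 0 to 1 without 1 F1 mouse. Over all genes 189 of 15111 were called as reported, 353 with DESeq2, 890 of 23517 with no filter and 207 with at least 10 reads. They were 246 with unique exon reads, 215 with all reads on the gene and 62 to 395 without 1 F1 mouse. With the replicate block 1 member was called (Il7r, 0.94), and Lat no longer was (0.84). The block changed no other member call in these 3 comparisons. Over all genes the block raised the number called from 164 to 260 in F1 and from 364 to 1391 in F0. For the difference between generations it rose from 189 to 267. No label says that a number marks a pair, and the correlations of deviations cannot show whether the mice were paired. F1-CD against F0-CD gave 8 higher calls as reported, 14 with no filter and 8 to 10 without 1 F1 mouse. Lower calls were 1 with no filter, 1 with all reads on the gene (Il7r) and 0 to 1 without 1 F1 mouse. Over all genes 2857 of 15111 were called as reported and 3415 of 23517 with no filter. They were 3141 of 17535 with all reads on the gene and 1885 to 3030 without 1 F1 mouse. In the fits resting on 1 F0-CD mouse, fewer were called among the members and over all genes. The causes were not tested, beyond the fewer or more genes and mice that a setting itself holds.

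Some single members changed sign. In fits without 1 mouse, the F1 value of Foxp3 ran from -0.035 to 0.333 and that of Gzma from -0.959 to 0.029. In F0, Cd3e was -0.021 with all reads on the gene, and without 1 mouse it ran from -0.143 to 0.153, Cd4 from -0.495 to 0.15, Cd8a from -0.249 to 0.089, Foxp3 from -0.559 to 0.163 and Ccl5 from -0.466 to 0.161. In the difference between generations, Gzma was 0.15 with all reads on the gene and ran from -0.918 to 0.058 without 1 mouse, and Cd4 from -0.062 to 0.577. In F1-CD against F0-CD, Foxp3 was 0.059 with all reads on the gene and ran from -0.187 to 0.188 without 1 mouse.

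Depth limited Gzmb, Gzma, Ctla4 and Prf1 most. With 3 or 2 mice per group, p-values rest on the spread of few mice, which edgeR estimates partly from all genes tested. The 3-read limit covers counting error only.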
